A study of Mus musculus with 12 samples.

Results

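The genes described here encode the proteins that make, recycle and use glutathione, the peroxiredoxins, and the thioredoxin and glutaredoxin families. They were measured in hearts of 11-week-old C57BL/6N mice that lacked MRPP3 in muscle. Members were chosen by gene symbol: the glutathione transferases Gsta, Gstk, Gstm, Gsto, Gstp, Gstt and Gstz, the membrane transferases Mgst, the peroxidases Gpx, the peroxiredoxins Prdx, all symbols starting with Txn or Glrx, and Gsr and Gss. The rule left out Gsto1 and Gstcd. It found 65 loci with 62 names among the 44450 loci listed in each library. Total RNA was sequenced in 6 libraries, 3 from control hearts of the genotype Mrpp3 loxP/loxP and 3 from knockout hearts of the genotype Mrpp3 loxP/loxP, +/Ckmm. Both groups carry the loxP-flanked gene, and only the knockouts carry the Ckmm transgene, which in lines of this kind drives Cre recombinase from the muscle creatine kinase promoter. An effect of Cre and an effect of losing the gene cannot be told apart in this design, and cells of the heart that do not use that promoter may keep the gene. The labels number the libraries of a group as replicates without stating that each is a separate animal, and a p-value here therefore reflects library-to-library spread only. Another 6 libraries, of RNA ends from isolated mitochondria, were not analysed here.

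Glutathione is a tripeptide that serves as the main soluble thiol of the cell. Glutamate-cysteine ligase and glutathione synthetase build it, peroxidases and transferases spend it on peroxides and electrophiles, and glutathione reductase restores it with electrons from NADPH. The thioredoxin system runs in parallel: thioredoxin reductase passes electrons from NADPH to thioredoxin, which reduces peroxiredoxins and other proteins. Cytosol and mitochondria each have their own thioredoxin, reductase and peroxiredoxin. In heart muscle, whose many mitochondria release superoxide and hydrogen peroxide, these enzymes are the main route of peroxide removal. The targeted gene encodes the nuclease subunit of mitochondrial RNase P and is now called Prorp.

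Levels are FPKM, by definition fragments per kilobase of transcript scaled to mapped fragments, so they are comparable per length between genes of a library. Whether the authors scaled further between libraries was not given. A log2 fold change is knockout over control on the scale of log2(FPKM + 0.5), which understates changes of low genes. Loci that reached 1 FPKM in 3 or more libraries were tested with limma, and adjusted p-values are Benjamini-Hochberg values over all 12181 such loci, with a threshold of 0.05. Prorp was lower in the knockouts, at 0.441 to 0.701 FPKM against 2.64 to 3.49 in controls (limma adjusted p = 0.00063). Steps between low values put the depth, relative to control replicate 1, at up to 1.35 in controls and at 2.06 to 2.58 in knockouts. These are estimates, and zeros are less certain in controls. Summed cardiomyocyte markers (8 genes) ran from 34510 to 39730 FPKM in controls and from 7611 to 16600 in knockouts, with 7 of 8 tested genes lower. Summed macrophage markers (9 genes) ran from 143.5 to 155 FPKM and from 208 to 231, with 6 of 9 tested genes higher. Knockout replicate 2 stood apart: its summed erythroid markers reached 21900 FPKM against 622 to 2903 in the other 5 libraries, and its atrial muscle markers 3320 against 1.65 to 118. In bulk heart RNA, fewer cells of a type and less RNA per cell cannot be told apart, and the part of these shifts in the results below was not tested except where a value is given.

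Of the 65 loci, 52 passed the filter on low values. Of these 52, 15 rose in the knockout, 11 fell and 26 did not pass the test. That is 28.8% higher and 21.2% lower, where 16.1% and 19.5% of all tested loci were called higher and lower, and 35.7% were called in either direction against 50% of these. The median log2 fold change was 0.06 over the 52 loci and -0.02 over all tested loci. Gsta1, Gsta2 and Gstp2 passed the filter through one genotype alone and so had to differ. They are counted in the shares above, and loci of this kind were also not removed from the shares over all tested loci. The members were chosen with earlier results of these data known, so the comparison of shares is a description only. All 3 knockout libraries lay above all controls at 16 of the 52 loci and below them at 13, where 23.6% and 28.7% of all tested loci did so. The calls went both ways within the glutathione transferases. The 3 called peroxidases rose, while the 2 called membrane transferases and the 2 called zeta and kappa transferases fell. Of these, Gpx3, Gpx8, Mgst1 and Gstz1 lost their calls in most fits with 1 library left out. Without knockout replicate 2, 16 rose and 10 fell, and 22 of the 26 calls were made again in the same direction. With 1 library left out in turn, 13 calls held each time (8 higher and 5 lower): Gss, Gsr, Txnrd1, Gpx1, Gsta1, Gsta2, Gstm4 and Txndc5, and Gstk1, Gstm7, Mgst3, Gstt3 and Txndc15. The filter was set on all libraries in each of these fits. Gsta1 and Gsta2, which passed it through the knockouts alone, therefore add no support here. The number that rose went down to 8 without control replicate 2 or 3 and to 9 without control replicate 1 or knockout replicate 1. The number that fell was 6 without control replicate 2 or 3, 7 without knockout replicate 1 and 16 without knockout replicate 3. Calls over all tested loci dropped as well. Without control replicate 2, 1212 loci were higher and 1409 lower, against 1966 and 2377 with all libraries. Scaling every library to the same sum of FPKM shifted the overall median from -0.02 to 0.20, and 19 members were then higher and 6 lower. Of all 12181 tested loci, 3229 were then higher and 1400 lower.

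**Figure D1:**
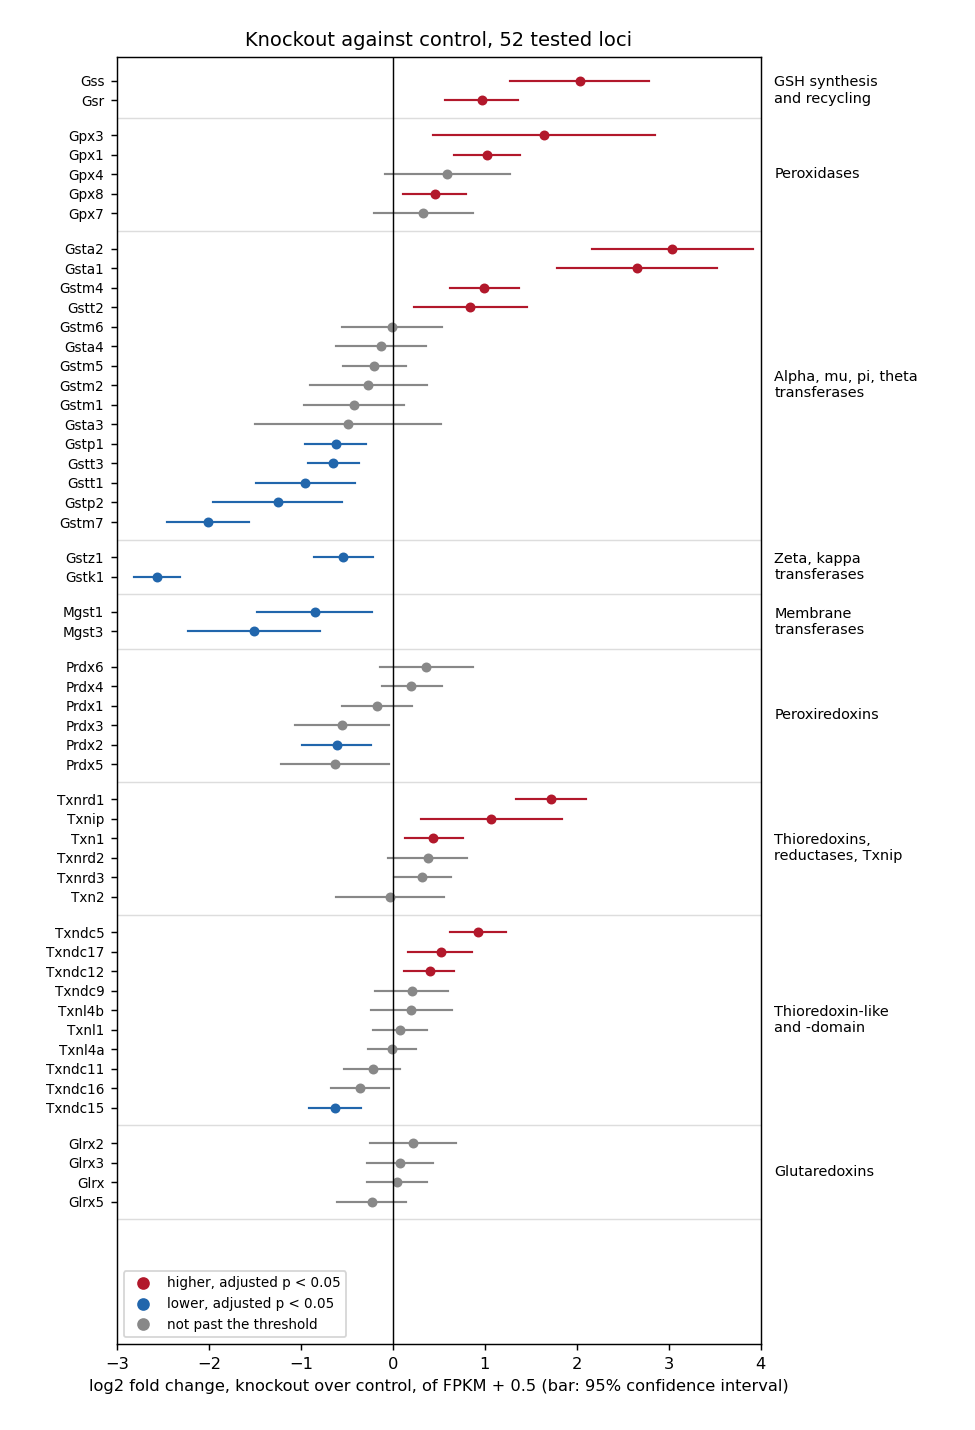
Log2 fold change of each of the 52 tested loci (x axis, knockout over control, FPKM + 0.5) with its 95% confidence interval, grouped by family and coloured by the limma call at an adjusted p of 0.05. The 15 red loci lie right of 0 and the 11 blue loci left of 0, with Gsta2 farthest right at 3.04 and Gstk1 farthest left at -2.56.

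Both genes of glutathione synthesis and recycling among the members rose. Gss encodes glutathione synthetase, which adds glycine in the last step of synthesis. It stood at 4.19, 5.04 and 5.60 FPKM in control replicates 1 to 3 and at 18.7, 14.45 and 37.7 in knockout replicates 1 to 3 (limma log2 fold change 2.04 with SE 0.32, adjusted p = 0.0035). Every knockout library was above every control, and replicate 3 was the highest. Gsr encodes glutathione reductase, which returns oxidised glutathione to its reduced form. It had 8.47, 7.55 and 8.30 FPKM in controls and 15.9, 13.3 and 20.5 in knockouts (limma log2 fold change 0.97 with SE 0.17, adjusted p = 0.0048). The order of the 3 knockout libraries was the same as for Gss. Their summed level was 13.05 ± 0.735 FPKM in controls and 40.1 ± 16.01 in knockouts (SD, n = 3 each, exact two-sided permutation p = 0.10, the smallest that 3 against 3 allows).

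The other genes of glutathione synthesis, breakdown and transport included several at earlier steps of synthesis that also rose. Of 20 listed genes 17 were tested, 9 rose, 3 fell and 5 did not pass. Over all tested loci 16.1% were called higher and 19.5% lower. The list was chosen with earlier results of these data known, so setting its counts beside these shares is a description only. The median log2 fold change of the 17 genes was 1.03, or 0.76 over the 16 without Slc7a11, of which 8 rose. Slc7a11, the cystine importer, was at 0, 0.00746 and 0.0220 FPKM in controls and at 7.03, 7.23 and 11.95 in knockouts. It was close to undetected in controls, with 1 of them listed at 0, and the size of its fold depends on the value added. It passed the filter through the knockouts alone and so had to differ. Cth, which makes cysteine from cystathionine, had 0.473 to 1.38 FPKM in controls and 3.83 to 8.73 in knockouts (limma log2 fold change 2.12, adjusted p = 0.0036). Glutamate-cysteine ligase, the rate-limiting enzyme, has a catalytic subunit, Gclc, and a modifier subunit, Gclm, and both rose. Gclc went from 3.63 ± 0.215 to 7.93 ± 1.06 FPKM (limma adjusted p = 0.0016), and the Gclm locus, which also carries the name Gm6061, from 7.635 ± 1.11 to 28.8 ± 5.44 (limma adjusted p = 0.00054). Chac1, which cleaves glutathione in the cytosol, rose from 1.12 ± 0.512 to 28.2 ± 12.4 FPKM (limma log2 fold change 4.10, adjusted p = 0.00048). Its paralog Chac2 fell from 10.15 ± 1.13 to 4.95 ± 1.00 FPKM (limma adjusted p = 0.0046). Abcc4, a transporter that can carry glutathione and its conjugates out of cells, rose from 2.36 ± 0.652 to 11.5 ± 1.81 FPKM (limma adjusted p = 0.00059).

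The glutathione peroxidases reduce hydrogen peroxide or lipid peroxides with glutathione. Of 8 loci, 5 were tested, 3 rose and none fell, where 16.1% of all tested loci were called higher and 19.5% lower. Gpx1, the abundant selenoenzyme of cytosol and mitochondria, had 36.3, 37.3 and 36.7 FPKM in controls and 63.1, 89.9 and 74.9 in knockouts (limma log2 fold change 1.02 with SE 0.15, adjusted p = 0.0027). The controls lay within 1 FPKM of each other, and all knockouts were above them. Its highest library was knockout replicate 2, which stood apart in erythroid and atrial muscle markers. Without that library the gene still passed (limma adjusted p = 0.0019), and the part of those markers was not tested. Gpx3, the secreted peroxidase of plasma, had 30.4, 32.9 and 27.4 FPKM in controls and 42.6, 221.6 and 91.7 in knockouts (limma log2 fold change 1.65 with SE 0.52, adjusted p = 0.042). The groups did not overlap, and the knockouts ranged far more widely than the controls, with replicate 2 the highest. Without replicate 2 the log2 fold change was 1.04 (adjusted p = 0.034), with array weights 0.74 (adjusted p = 0.11), and with quantile normalization the adjusted p was 0.059. The call was also lost without control replicate 1, 2 or 3 or knockout replicate 3 (adjusted p = 0.080 to 0.11) and with no filter on low values (0.093).

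Gpx4, which reduces phospholipid peroxides in membranes and limits ferroptosis, was the most abundant peroxidase per length. It had 154.9, 172.7 and 175.9 FPKM in controls and 261.4, 163.8 and 378.2 in knockouts. Knockout replicate 2 fell within the control range and the other knockout libraries lay above it, so the gene did not pass (limma log2 fold change 0.59 with SE 0.29, adjusted p = 0.15). Without that library it passed (adjusted p = 0.0083), as it did with quantile normalization (0.011), array weights (0.010) and scaling to one sum (0.033). Gpx8, a peroxidase of the endoplasmic reticulum that uses cysteine in place of selenocysteine, had 14.7, 15.7 and 13.6 FPKM in controls and 24.3, 19.8 and 17.4 in knockouts (limma log2 fold change 0.46 with SE 0.15, adjusted p = 0.046). The groups did not overlap, but the call was lost without any 1 library other than knockout replicate 3 (adjusted p = 0.057 to 0.14), with no filter (0.070) and without a variance trend (0.055). The related Gpx7 did not pass, with 2.62 to 3.43 FPKM in controls and 3.02 to 5.85 in knockouts. Gpx2, Gpx5 and Gpx6, known from gut, epididymis and olfactory tissue, were listed at 0 in all 6 libraries. The summed level of the family was 252.6 ± 12.0 FPKM in controls and 487 ± 85.9 in knockouts, without overlap (SD, n = 3 each, exact permutation p = 0.10). Gpx4, which did not pass, made up 66.4% of the control sum and 55.0% of the knockout sum.

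Selenocysteine sits at the active site of Gpx1, Gpx3, Gpx4 and the thioredoxin reductases, and its insertion needs a dedicated machinery. Of 11 listed genes for selenoprotein synthesis and selenium handling, 10 were tested, 2 rose, 2 fell and 6 did not pass. The shares over all tested loci were 16.1% higher and 19.5% lower. Eefsec, the elongation factor that delivers selenocysteine, rose from 2.201 ± 0.207 to 3.96 ± 0.402 FPKM (limma log2 fold change 0.72, adjusted p = 0.0065). Secisbp2l, a paralog of the protein that binds the selenocysteine insertion element, rose from 9.09 ± 0.938 to 13.2 ± 2.06 (limma adjusted p = 0.033), and with 1 library left out it passed only without knockout replicate 1. Pstk, which phosphorylates the seryl group on the selenocysteine tRNA, fell from 27.1 ± 2.05 to 17.4 ± 3.43 FPKM (limma adjusted p = 0.018) but missed the threshold without control replicate 1 or 2 (adjusted p up to 0.071). Sepp1, the selenium carrier selenoprotein P, fell from 141.5 ± 9.23 to 93.0 ± 4.53 FPKM (adjusted p = 0.010).

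**Figure D2:**
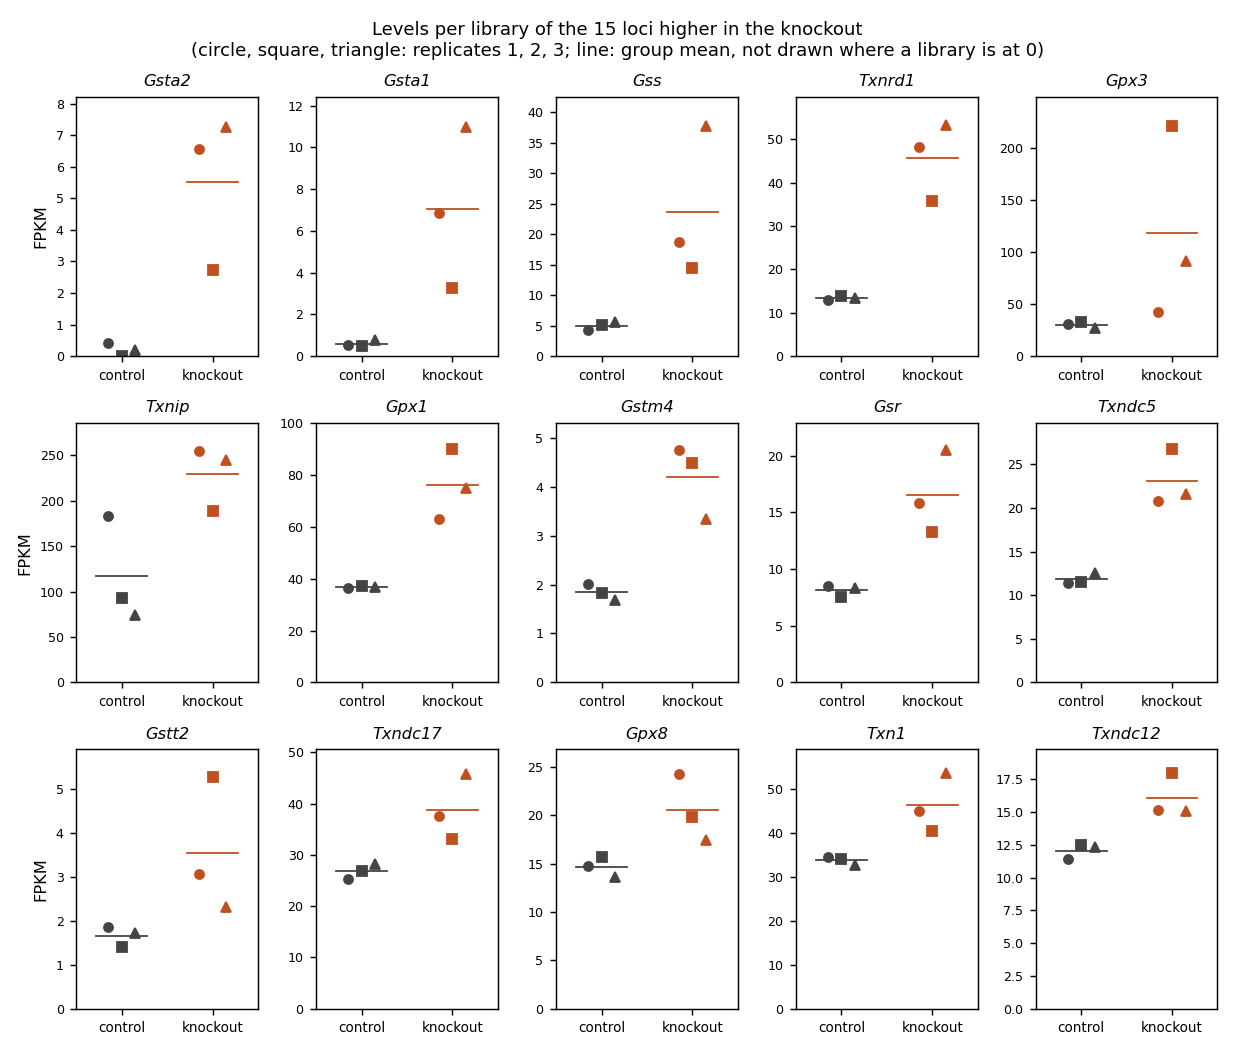
FPKM in each library (y axis, from 0, scaled per gene) of the 15 loci that rose, with circles, squares and triangles for replicates 1 to 3 and a line at the group mean, left out where a library is at 0. The 3 knockout values of Gpx3 lie farthest apart relative to their mean, and knockout replicate 2 (square) is the highest knockout library for Gpx3, Gpx1, Txndc5, Gstt2 and Txndc12 and the lowest knockout library for Gsta1, Gsta2, Gss, Txnrd1, Txnip, Gsr, Txndc17 and Txn1.

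The soluble transferases of the alpha, mu, pi and theta classes join glutathione to electrophiles. Of 19 loci 15 were tested, 4 rose, 5 fell and 6 did not pass, where 16.1% of all tested loci were called higher and 19.5% lower. Gsta1 and Gsta2, which in the mouse are the inducible alpha-class enzymes, showed the largest rises of all members from levels under 1 FPKM. Gsta1 had 0.519, 0.478 and 0.765 FPKM in controls and 6.84, 3.28 and 11.0 in knockouts (limma log2 fold change 2.66 with SE 0.37, adjusted p = 0.0022). Gsta2 was listed at 0.421, 0 and 0.189 FPKM in controls and at 6.57, 2.74 and 7.25 in knockouts (limma log2 fold change 3.04 with SE 0.37, adjusted p = 0.0013). In both genes all knockouts were above all controls and replicate 2 was the lowest of them. Both passed the filter through the knockouts alone and so had to differ. The 2 genes lie near each other on chromosome 9 of GRCm38, Gsta1 at 78230669 to 78242683 and Gsta2 at 78331018 to 78347192, and as close paralogs they may share fragments that the authors' counting could split. Gsta4, which acts on aldehydes of lipid peroxidation and lies in the same cluster at 78191966 to 78209349, was the most abundant alpha member and did not pass. It had 59.9, 58.4 and 57.9 FPKM in controls and 53.9, 39.6 and 71.7 in knockouts (log2 fold change -0.13, 95% interval -0.62 to 0.36).

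The start-site windows of Gsta1 and Gsta2 are printed because these 2 genes showed the largest rises and their windows are alike. Each runs from 250 bases before to 50 after the RefSeq start, 5′ to 3′ on the gene's strand (GRCm38.p6; Gsta1 chr9:78230419-78230718, plus strand; Gsta2 chr9:78347096-78347395, minus strand). In a global alignment 232 of 311 columns were identical (74.6%), against 51.2% for Gsta1 and Gsta3 and 45.2% for Gstm1 and Gstm2. The windows of Gstp1 and Gstp2, which both fell, were as alike (76.4%). Capitals mark the 68 bases in each that are not matched in the other, most of them in the first part of the window.
Gsta1: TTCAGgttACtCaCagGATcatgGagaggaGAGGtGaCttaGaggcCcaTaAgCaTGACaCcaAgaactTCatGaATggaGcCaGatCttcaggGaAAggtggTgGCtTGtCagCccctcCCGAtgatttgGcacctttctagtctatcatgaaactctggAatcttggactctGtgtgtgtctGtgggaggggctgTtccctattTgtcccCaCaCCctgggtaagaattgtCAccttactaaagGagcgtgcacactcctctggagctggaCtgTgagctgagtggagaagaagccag
Gsta2: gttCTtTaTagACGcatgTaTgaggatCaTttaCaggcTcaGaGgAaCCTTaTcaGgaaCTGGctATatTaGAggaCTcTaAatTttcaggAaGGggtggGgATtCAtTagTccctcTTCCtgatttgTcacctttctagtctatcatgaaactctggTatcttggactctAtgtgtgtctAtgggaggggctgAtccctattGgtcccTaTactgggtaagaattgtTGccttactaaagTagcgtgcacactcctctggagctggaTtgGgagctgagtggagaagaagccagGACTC

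The mu-class genes form a cluster on chromosome 3, from Gstm5 at 107895854 to the end of Gstm4 at 108045179, and its members did not move as one. Gstm7 had 24.2, 25.3 and 22.9 FPKM in controls and 5.28, 4.32 and 7.64 in knockouts (limma log2 fold change -2.01 with SE 0.19, adjusted p = 0.00057). Gstm4, the last gene of the cluster, rose from 2.01, 1.83 and 1.68 FPKM to 4.75, 4.47 and 3.35 (limma log2 fold change 0.99 with SE 0.16, adjusted p = 0.0037). The genotypes did not overlap for either gene. Gstm1, the most abundant transferase of these classes, had 127.3, 109 and 101.8 FPKM in controls and 84.2, 60.4 and 114.2 in knockouts and did not pass (adjusted p = 0.20). Gstm1 passed without knockout replicate 3 (adjusted p = 0.039) and with array weights (0.041). Gstm2 (adjusted p = 0.47) also passed without knockout replicate 3 (0.049). Gstm5 and Gstm6 did not pass (Gstm5 only with array weights, 0.023), with 27.7 to 33.6 and 0.823 to 1.14 FPKM in controls and 23.8 to 31.3 and 0.634 to 1.41 in knockouts.

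The 4 theta-class genes are neighbours on chromosome 10, and here too the called members went both ways. Gstt1 had 9.58, 9.79 and 11.4 FPKM in controls and 4.12, 7.65 and 4.07 in knockouts (limma log2 fold change -0.95 with SE 0.23, adjusted p = 0.018). This call was lost without control replicate 2 or 3 or knockout replicate 1 (adjusted p = 0.051, 0.065 and 0.055) and when each library was scaled to one sum (0.055). Gstt3 shares its locus with Ddt, a tautomerase gene, and Gm20441, so its own part cannot be read. That locus fell from 42.1, 39.7 and 40.3 FPKM to 27.6, 23.3 and 26.8 (limma log2 fold change -0.65 with SE 0.12, adjusted p = 0.0055). Gstt2 rose from 1.86, 1.40 and 1.71 FPKM to 3.06, 5.26 and 2.31 (limma log2 fold change 0.84 with SE 0.26, adjusted p = 0.041), with replicate 2 the highest. The Gstt2 call was lost without any 1 library other than knockout replicate 3 (adjusted p = 0.055 to 0.12) and with no filter (0.095). The pi class has the paired genes Gstp1 and Gstp2, which are closely similar copies on chromosome 19 and may share fragments. Gstp1 had 37.1, 37.3 and 37.7 FPKM in controls and 25.3, 27.7 and 20.2 in knockouts (limma log2 fold change -0.62 with SE 0.14, adjusted p = 0.014), a call lost without control replicate 2 (0.055) or 3 (0.053) and with scaling to one sum (0.11). Gstp2 had 1.04, 1.01 and 2.198 FPKM in controls and 0.519, 0.143 and 0.203 in knockouts (limma log2 fold change -1.25 with SE 0.30, adjusted p = 0.017), lost without control replicate 3 (0.054). Gstp2 passed the filter through the controls alone and so had to differ, and its log2 fold change was -2.00 with 0.1 added in place of 0.5. Gsta3 did not pass (adjusted p = 0.41) except without knockout replicate 3 (0.027). Summed over the 4 classes the level was 383 ± 21.8 FPKM in controls and 304 ± 67.9 in knockouts, with overlap (exact permutation p = 0.30).

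Gstk1, the kappa-class transferase of mitochondria and peroxisomes, showed the largest fall of the tested members, with the libraries of each group close together. It had 67.9, 67.3 and 65.5 FPKM in controls and 11.1, 10.3 and 11.5 in knockouts (limma log2 fold change -2.56 with SE 0.11, adjusted p = 3.6e-05). All 3 knockout libraries lay near 11 FPKM, replicate 2 included. Gstz1, the zeta-class enzyme that acts as maleylacetoacetate isomerase in tyrosine breakdown, fell from 22.0, 20.1 and 22.0 FPKM to 14.1, 12.7 and 17.3 (limma log2 fold change -0.54 with SE 0.14, adjusted p = 0.022). The Gstz1 call was lost without any 1 control or knockout replicate 1 (adjusted p = 0.059 to 0.077) and with scaling to one sum (0.083). Gsto2 was below 0.5 FPKM in every library and was not tested. Gsto1, its abundant neighbour outside the member set, had 80.7, 85.1 and 94.95 FPKM in controls and 271, 155.5 and 378 in knockouts (limma log2 fold change 1.53 with SE 0.30, adjusted p = 0.0080). Counted as a member it would make 16 of 53 higher.

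The membrane-bound transferases Mgst1 and Mgst3, which also have peroxidase activity, both fell. Mgst3 had 113.2, 141.5 and 173.3 FPKM in controls and 58.8, 30.2 and 66.4 in knockouts (limma log2 fold change -1.51 with SE 0.31, adjusted p = 0.0090). All knockouts were below all controls, with replicate 2 the lowest. Mgst1 had 46.8, 49.6 and 25.6 FPKM in controls and 19.7, 18.7 and 26.4 in knockouts (limma log2 fold change -0.85 with SE 0.27, adjusted p = 0.042). Control replicate 3 was below knockout replicate 3, which makes Mgst1 the 1 called member whose groups overlapped. Its call was lost without control replicate 1 or 2 or knockout replicate 1 or 2 (adjusted p = 0.086 to 0.13), with no filter (0.085) and with scaling to one sum (0.10). Mgst2 stayed below 0.2 FPKM in every library. The fall in summed cardiomyocyte markers has the same direction as the falls of Gstk1, Mgst3 and Gstm7, and its part in them was not tested.

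**Figure D3:**
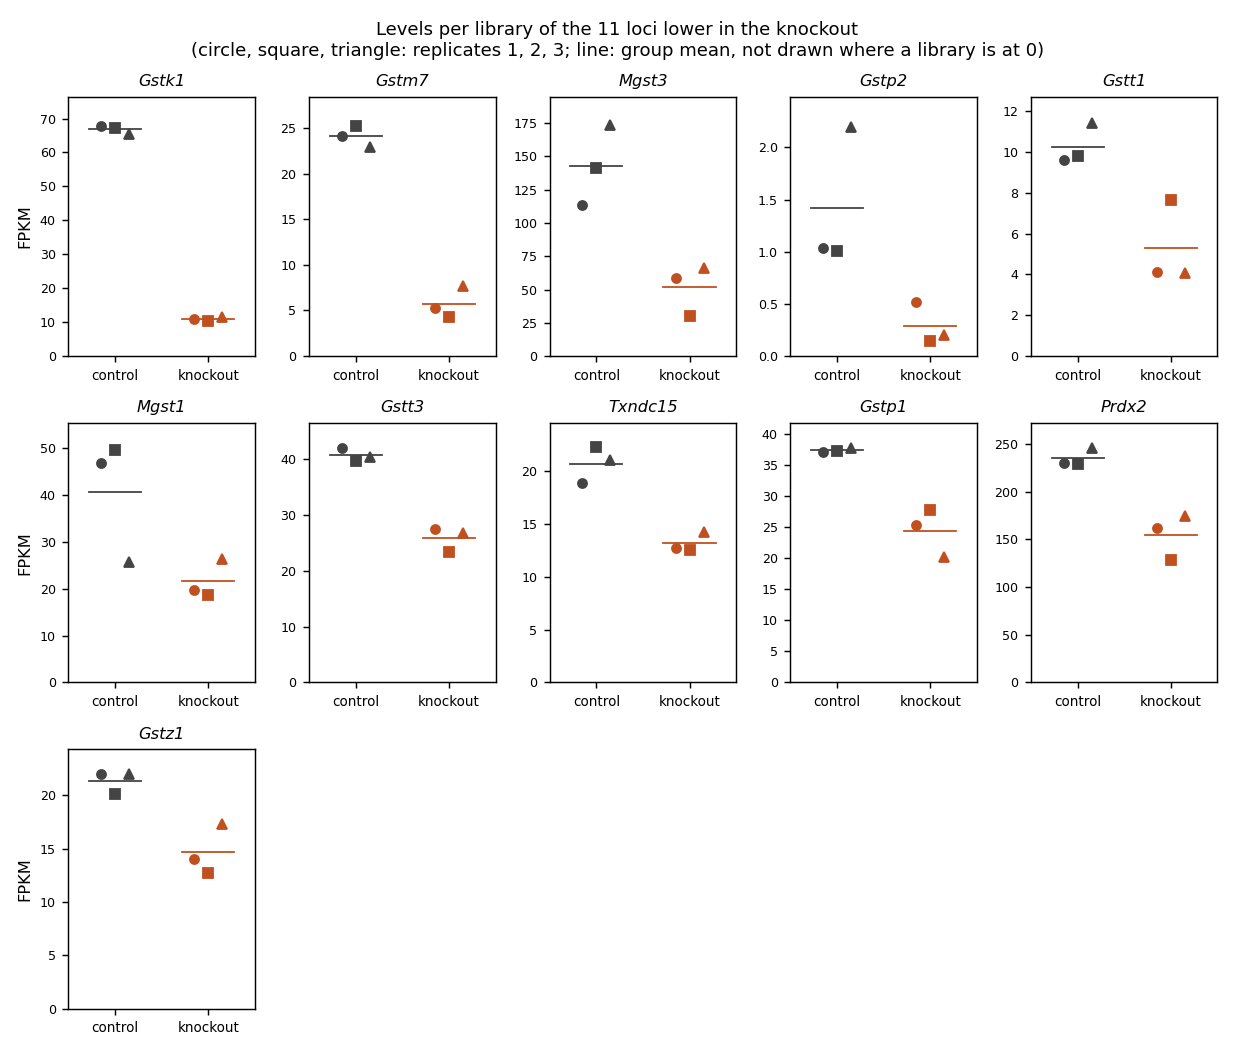
FPKM in each library (y axis, from 0, scaled per gene) of the 11 loci that fell, with circles, squares and triangles for replicates 1 to 3 and a line at the group mean. Gstk1 separates the genotypes most sharply, at 65.5 to 67.9 against 10.3 to 11.5 FPKM, and Mgst1 is the panel where the genotypes overlap.

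The peroxiredoxins were the most abundant family per length, at 868.5 ± 36.0 summed FPKM in controls and 702 ± 164 in knockouts (two-sided exact permutation p = 0.20). Of 6 tested members only Prdx2 passed, as lower, where 19.5% of all tested loci were called lower and 16.1% higher. Prdx2, a cytosolic peroxiredoxin also abundant in red cells, had 229.7, 229.4 and 245.9 FPKM in controls and 161.9, 128.6 and 174 in knockouts (limma log2 fold change -0.61 with SE 0.16, adjusted p = 0.023). All knockouts were below all controls, and knockout replicate 2 was the lowest. The part of its erythroid and atrial muscle content was not tested. This call was lost without any 1 control or knockout replicate 1 (adjusted p = 0.052 to 0.086) and with scaling to one sum (0.056). Prdx5, found in mitochondria, peroxisomes and cytosol, had 180.6, 197.7 and 202.2 FPKM in controls and 129.9, 85.3 and 174 in knockouts. The groups did not overlap, but the gene missed the threshold (limma log2 fold change -0.63 with SE 0.25, adjusted p = 0.088). Prdx3, the mitochondrial peroxiredoxin, had 141, 150.4 and 154.4 FPKM in controls and 101.8, 74.6 and 136.2 in knockouts (limma log2 fold change -0.55, adjusted p = 0.087). Prdx5 and Prdx3 passed without knockout replicate 3 (adjusted p = 0.020 and 0.016) and with array weights (0.0080 and 0.0068). The cytosolic Prdx1 (158 to 176 FPKM in controls, 123 to 170.9 in knockouts) and Prdx4 of the endoplasmic reticulum (10.52 to 13.1 and 12.0 to 15.25) did not pass. Prdx6, which takes its electrons from glutathione, had 110.4 to 119.8 FPKM in controls and 143.7, 110.7 and 199 in knockouts (adjusted p = 0.23). It passed without knockout replicate 2 (adjusted p = 0.029), with quantile normalization (0.020) and with scaling to one sum (0.034).

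Txnrd1, the cytosolic thioredoxin reductase, had the clearest rise of the thioredoxin system. It had 12.9, 13.8 and 13.5 FPKM in controls and 48.1, 35.8 and 53.4 in knockouts (limma log2 fold change 1.72 with SE 0.16, adjusted p = 0.00055). The lowest knockout was more than 20 FPKM above the highest control. Txnrd2, the mitochondrial reductase, had 10.8, 11.5 and 9.57 FPKM in controls and 15.1, 10.6 and 17.0 in knockouts and did not pass (limma log2 fold change 0.38 with SE 0.18, adjusted p = 0.14). It passed without knockout replicate 2 (adjusted p = 0.014), with array weights (0.015) and with scaling to one sum (0.028). Txnrd3, the reductase best known from testis, had 4.56 to 5.70 FPKM in controls and 5.72 to 7.10 in knockouts (adjusted p = 0.10, and 0.012 with scaling to one sum and 0.021 with array weights). Txn1, the cytosolic thioredoxin, rose from 34.5, 34.0 and 32.7 FPKM to 45.1, 40.4 and 53.5 (limma log2 fold change 0.44 with SE 0.14, adjusted p = 0.038). The Txn1 call was lost without any 1 library other than knockout replicate 2 (adjusted p = 0.060 to 0.12). Txn2, its mitochondrial counterpart, had 76.4, 70.7 and 39.3 FPKM in controls and 61.8, 52.0 and 62.4 in knockouts, so the knockouts lay inside the control range (log2 fold change -0.03, 95% interval -0.62 to 0.56). Control replicate 3 was low for Txn2, as for Mgst1.

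Txnip binds thioredoxin and blocks it, limits glucose uptake, and was the most abundant locus of this group per length. It had 183.7, 92.4 and 74.2 FPKM in controls and 255.2, 188.5 and 245.2 in knockouts (limma log2 fold change 1.07 with SE 0.33, adjusted p = 0.039). The groups did not overlap, but control replicate 1 lay within 5 FPKM of the lowest knockout. The call was lost without control replicate 2 or 3 or knockout replicate 1 or 3 (adjusted p = 0.085 to 0.12) and with no filter (0.083). Summed over thioredoxins, reductases and Txnip the level was 242 ± 74.9 FPKM in controls and 401 ± 59.1 in knockouts, of which Txnip made up 48.3% and 57.2%.

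The ratio of a cytosolic enzyme to its mitochondrial partner was compared within each library for 5 pairs, which largely removes scaling between libraries. For Txnrd1 over Txnrd2 the log2 ratio was 0.24, 0.25 and 0.47 in controls and 1.64, 1.71 and 1.62 in knockouts, a difference of 1.33 (exact two-sided permutation p = 0.10, the smallest possible, and 0.25 adjusted over 5 pairs). The knockout ratios agreed within 0.1 although both genes varied between those libraries, and knockout replicate 2 did not stand apart. For Prdx1 over Prdx3 it was 0.16, 0.11 and 0.19 in controls and 0.58, 0.72 and 0.33 in knockouts (difference 0.39, exact permutation p = 0.10), again without overlap. The groups overlapped for Txn1 over Txn2 (difference 0.47, exact permutation p = 0.30, and 0.31 to 0.75 with 1 library left out, the highest without control replicate 3 and the lowest without control replicate 1), for Glrx over Glrx2 (-0.17, exact permutation p = 0.60) and for Prdx2 over Prdx3 (-0.06, exact permutation p = 0.80). With 3 libraries against 3 no pair could pass the threshold.

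**Figure D4:**
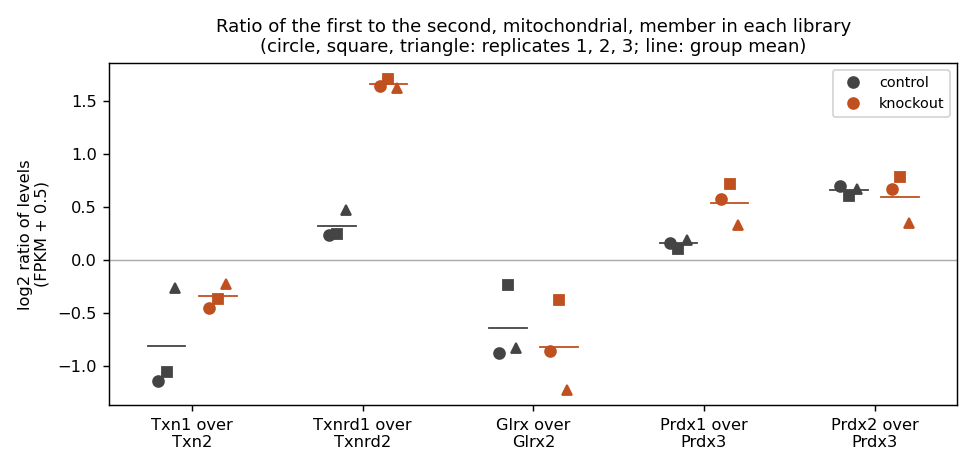
Log2 ratio of the level of a cytosolic member to that of its mitochondrial partner (y axis, FPKM + 0.5) in each library for 5 pairs, with circles, squares and triangles for replicates 1 to 3 and a line at the group mean. Txnrd1 over Txnrd2 lies at 0.24 to 0.47 in controls and 1.62 to 1.71 in knockouts, and Prdx1 over Prdx3 is the other pair without overlap.

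Thioredoxin-like and thioredoxin-domain proteins carry the fold for other tasks, many in the endoplasmic reticulum. Of 12 loci 10 were tested, 3 rose, 1 fell and 6 did not pass, where 16.1% of all tested loci were called higher and 19.5% lower. Txndc5, a disulfide isomerase of the endoplasmic reticulum, rose from 11.4, 11.6 and 12.6 FPKM to 20.8, 26.7 and 21.6 (limma log2 fold change 0.93 with SE 0.13, adjusted p = 0.0023). Txndc12, a smaller oxidoreductase of the same compartment, rose from 11.4, 12.5 and 12.3 FPKM to 15.2, 18.0 and 15.1 (limma log2 fold change 0.40 with SE 0.12, adjusted p = 0.036), a call lost without any 1 library other than knockout replicate 3 (0.055 to 0.12). Txndc17, a cytosolic thioredoxin-related protein, rose from 25.3, 26.8 and 28.2 FPKM to 37.5, 33.0 and 45.8 (limma log2 fold change 0.52 with SE 0.15, adjusted p = 0.030), lost without any 1 control or knockout replicate 1 (0.065 to 0.10). The genotypes did not overlap for these 3 genes. Txndc15, a membrane protein with a thioredoxin domain, fell from 18.8, 22.2 and 21.0 FPKM to 12.7, 12.5 and 14.3 (limma log2 fold change -0.63 with SE 0.12, adjusted p = 0.0065). Txndc16 was lower in every knockout (4.02 to 5.29 FPKM) than in any control (5.78 to 6.59) and did not pass (adjusted p = 0.075). The locus of the splicing factor Txnl4a, which also carries the name Gm16286, was the steadiest, with 30.2, 30.3 and 30.0 FPKM in controls and 29.9, 27.7 and 32.4 in knockouts (log2 fold change -0.01, 95% interval -0.27 to 0.25). Txnl1, Txnl4b, Txndc9 and Txndc11 did not pass in the fit of all libraries. Txndc9 passed without knockout replicate 2 (adjusted p = 0.032) and with array weights (0.019), and Txndc11 with array weights (0.031).

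Glutaredoxins reduce disulfides with glutathione or carry iron-sulfur clusters, and none of the 4 passed in any setting tried. With all libraries limma called 0, where 35.7% of all tested loci were called, and 0 had an unadjusted p under 0.05. Glrx2 had an unadjusted p under 0.05 with array weights, with scaling to one sum and without knockout replicate 2, and Glrx3 with scaling to one sum (lowest adjusted p = 0.068). Glrx5, which serves iron-sulfur cluster assembly in mitochondria, had 34.6, 37.6 and 35.6 FPKM in controls and 36.1, 24.2 and 32.3 in knockouts (log2 fold change -0.23, 95% interval -0.61 to 0.14). Glrx3, an iron-sulfur protein of the cytosol, had 30.8, 31.7 and 32.6 FPKM and 36.0, 27.1 and 38.8 (log2 fold change 0.08, 95% interval -0.28 to 0.44). The mitochondrial Glrx2 had 11.0 to 15.4 and 11.6 to 18.9 FPKM, and the cytosolic Glrx 6.90 to 9.29 and 7.80 to 8.86. These intervals span changes of up to 0.69 on the log2 scale for Glrx2 and leave smaller differences unresolved.

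Of the 13 loci not tested, 8 were listed at 0 in all 6 libraries: Gpx2, Gpx5, Gpx6, Prdx6b, Txndc8 and second loci of Gstp1, Gstp2 and Txnrd2. The other 5, Gstm3, Gstt4, Gsto2, Mgst2 and Txndc2, stayed below 0.5 FPKM in every library.

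Enzymes that draw on thioredoxin and glutathione, or supply their NADPH, were measured beside the members. In 5 lists with 71 tested genes, 20 rose and 18 fell, where 16.1% and 19.5% of all tested loci were called higher and lower. When each library was scaled to one sum, 28 rose and 12 fell, against 3229 and 1400 of all 12181 tested loci. The 16.1% and 19.5% are also the shares to set beside the counts of each single list. All 5 lists were chosen with earlier results of these data known, so this comparison is a description only. Slc7a11, Sesn2 and Aldh1l1 reached 1 FPKM in one genotype alone, and without them 18 of 68 rose and 17 fell. Of 17 tested thioredoxin-dependent enzymes and partners, 3 rose and 5 fell. Srxn1, sulfiredoxin, which repairs overoxidised peroxiredoxins, rose from 6.14, 6.51 and 7.555 FPKM to 47.3, 30.8 and 50.5 (limma log2 fold change 2.56 with SE 0.20, adjusted p = 0.00034). Of its substrates among the members, Prdx1, Prdx2, Prdx3 and Prdx4, none rose. Sesn2, a stress-induced sestrin counted among the 3 that rose, passed the filter through the knockouts alone and so had to differ, at 0.490 to 0.844 FPKM in controls and 6.55 to 17.1 in knockouts. Msrb2, the mitochondrial methionine sulfoxide reductase, fell from 40.1 ± 1.16 to 10.8 ± 1.92 FPKM (limma log2 fold change -1.87, adjusted p = 0.00037). Map3k5, a kinase that thioredoxin holds inactive, fell from 16.3 ± 1.36 to 7.12 ± 1.3 FPKM (limma adjusted p = 0.0019).

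Among 14 genes of NADPH supply, 3 rose, 6 fell and 5 did not pass. G6pdx, which opens the pentose phosphate pathway in the cytosol, rose from 2.74, 2.705 and 2.30 FPKM to 7.03, 9.54 and 10.1 (limma log2 fold change 1.60 with SE 0.16, adjusted p = 0.00069). Aldh1l2, a mitochondrial folate enzyme that yields NADPH, rose from 2.47 ± 0.661 to 16.3 ± 6.98 FPKM (limma adjusted p = 0.0013). The abundant mitochondrial sources fell. Idh2 had 815.7, 840.7 and 1047 FPKM in controls and 318, 165 and 515 in knockouts (limma log2 fold change -1.57 with SE 0.39, adjusted p = 0.018), a call lost without control replicate 2 or 3 (adjusted p up to 0.067). Nnt, the transhydrogenase of the inner mitochondrial membrane, had 266.5, 262.1 and 287.8 FPKM in controls and 127, 66.9 and 141 in knockouts (limma log2 fold change -1.35 with SE 0.28, adjusted p = 0.0092). Of 13 other tested glutathione-using proteins 3 rose, 2 fell and 8 did not pass. Esd, which hydrolyses S-formylglutathione, rose from 53.5, 52.8 and 54.2 FPKM to 273, 195 and 426 (limma log2 fold change 2.39, adjusted p = 0.00096), and Clic1, a chloride channel protein of the transferase fold, from 11.8 ± 1.06 to 28.0 ± 5.01 (adjusted p = 0.0017). Sqrdl, the mitochondrial sulfide oxidase, fell from 24.9 ± 2.545 to 13.2 ± 1.25 FPKM (adjusted p = 0.0025). Hpgds, a prostaglandin synthase of the sigma class, went from 0.638 ± 0.373 to 1.41 ± 0.249 FPKM (adjusted p = 0.049), and with 1 library left out it passed only without control replicate 2.

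The start-site windows of the members were searched for a pair of motifs on both strands: TGACNNNGC, the core of the antioxidant response element bound by NRF2, and TGATGNAA, the core of the element bound by ATF4 with C/EBP proteins. RefSeq windows were found for 55 of the 62 names, and Gsr, Gstt2, Gsta4, Prdx6, Prdx6b, Txnl1 and Txnl4a were not searched. The first motif was in 9 of these 55 genes (16.4%), against 14.0% of all 27025 genes with a window. Members had more windows per gene, and by window the shares were 9 of 77 (11.7%) and 12.4% of 32851, so the order of the shares turned. Of the 9, Txnrd1 and Txndc5 rose, Gstm7 and Mgst1 fell, Gsta3, Gstm5, Prdx1 and Txndc11 did not pass, and Txndc2 was not tested. The second motif was in 1 member, Txndc5 (1.82%), against 4.51% of all genes, or 1.299% of member windows against 3.97% of all windows. The sequences below show the same 9 letters in a gene that rose, where they lie on the opposite strand 92 bases before the start, and in a gene that fell, where they begin 129 bases before the start, followed by the 1 match of the ATF4 motif (opposite strand). Capitals mark the match. The windows are Txnrd1 chr10:82858956-82859255 (plus strand, 1 of 3 starts), Gstm7 chr3:107931565-107931864 (minus strand, 1 of 2) and Txndc5 chr13:38528775-38529074 (minus strand, 1 of 3). A match describes these letters and does not show binding. The windows end 250 bases before and 50 after a start, so a gene without a match may hold the motif elsewhere.
Txnrd1: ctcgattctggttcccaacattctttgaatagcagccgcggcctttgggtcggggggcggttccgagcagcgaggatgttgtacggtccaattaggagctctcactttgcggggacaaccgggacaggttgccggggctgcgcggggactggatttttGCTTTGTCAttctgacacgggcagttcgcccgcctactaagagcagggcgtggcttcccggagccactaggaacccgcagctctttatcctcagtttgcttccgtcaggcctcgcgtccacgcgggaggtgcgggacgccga
Gstm7: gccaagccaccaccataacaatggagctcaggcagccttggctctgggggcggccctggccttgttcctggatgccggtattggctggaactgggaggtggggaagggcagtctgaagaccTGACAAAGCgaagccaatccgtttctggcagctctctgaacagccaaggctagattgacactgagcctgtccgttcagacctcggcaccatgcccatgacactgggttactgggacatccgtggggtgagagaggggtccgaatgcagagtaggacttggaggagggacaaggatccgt
Txndc5: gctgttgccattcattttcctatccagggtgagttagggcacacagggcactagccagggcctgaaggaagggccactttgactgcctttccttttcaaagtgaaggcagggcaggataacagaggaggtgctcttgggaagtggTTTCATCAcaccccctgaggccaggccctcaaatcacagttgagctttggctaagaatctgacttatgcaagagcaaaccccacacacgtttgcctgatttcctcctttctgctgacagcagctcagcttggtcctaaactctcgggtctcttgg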

How the data were processed

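The deposited values are FPKM per locus, 1 table per library, made by the authors from ribosomal-RNA-depleted total RNA per the labels' protocols. The submitters' processing notes name HISAT 0.1.6, StringTie 1.1.0, Cufflinks 2.2.1, HISAT2 2.0.1 and GRCm38 without their roles. Annotation, use of strand and scaling between libraries were not given in the sources used here. Read totals are not in the tables, so no counting intervals are given. Loci that reached 1 FPKM in 3 or more libraries were fitted with limma 3.58.1 in R 4.3.3 on log2(FPKM + 0.5), with a variance trend and Benjamini-Hochberg adjustment over all loci tested. Sums and ratios were compared with exact two-sided permutation tests (SciPy 1.17.1).

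The members and gene lists were chosen with earlier results of these data known. Every member is named, with values in every library for those past the threshold and for the 2 most abundant of each family, and each list gives up to 4 loci past the threshold with the largest change. Gclc, Gclm and Chac2 were added after their values were seen. Promoter windows are RefSeq's (GRCm38.p6), aligned with Biopython 1.88. Alternatives covered the value added, the filter, 3 scalings, the variance trend, array weights, a replicate block and each library left out. On simulated data for 11928 loci, the fit recovered 65% of 100 loci changed 2-fold and 93% of 100 changed 4-fold, and 4.24% of its calls were unchanged loci. The changed loci left out those of low level, and no simulated library stood apart. Far fewer loci changed there than the 35.7% called in the data, so these rates may not hold for the data.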

Additional observations from a re-analysis of the deposited data

How the results depend on the processing

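Of the 26 called members, 13 passed in all 16 alternatives and none changed direction. Gsta1 and Gsta2, among the 13, passed the filter on low values through the knockouts alone and so had to differ there. Another 12 members that were not called passed in some alternative. Scaling each library to one sum left 6 members lower and called 3229 of all loci higher and 1400 lower. With 1 library left out in turn, 8 to 16 members were higher and 6 to 16 lower, and 1212 to 2153 of all loci were higher and 1409 to 2389 lower. Correlations of same-numbered deviations were -0.0829, -0.0641 and -0.00632, and each library was closest to another number. With 3 libraries a group these deviations are tied together, and the check cannot decide whether the replicate numbers pair libraries. With the replicate block 10 members were higher and 9 lower, and 7 calls were not made: Txndc17 (limma adjusted p = 0.051), Prdx2 (0.054), Gpx8 (0.066), Gstt2 (0.067), Txndc12 (0.074), Mgst1 (0.082) and Txn1 (0.084).

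Members near 0 changed sign. On the log2 scale, scaling to one sum gave Gstm5 0.03, Gsta4 0.10, Gstm6 0.17, Prdx1 0.06, Txnl4a 0.22 and Txn2 0.20, median-of-ratios scaling gave Gstm6 0.02, Txnl4a 0.03 and Txn2 0.01, and quantile normalization gave Txnl4a 0.05 and Txn2 0.05. Summed FPKM was 523499 to 589995 in controls and 456493 to 516068 in knockouts, so scaling to one sum raises knockouts relative to controls. What lowered the knockout sums was not tested. With 1 library left out the ranges were Gsta4 -0.34 to 0.08, Gstm6 -0.18 to 0.19, Glrx -0.07 to 0.14, Glrx3 -0.02 to 0.23, Txnl4a -0.07 to 0.04, Txn2 -0.33 to 0.15. The log2 ratio difference ranged from -0.39 to 0.03 for Glrx over Glrx2 and from -0.15 to 0.06 for Prdx2 over Prdx3. The summed glutaredoxin level, knockout over control, was 1.17 scaled to one sum, 1.02 with median-of-ratios scaling and 0.948 to 1.09 with 1 library left out. Adding Gsto1 gave 16 members higher. With 3 libraries a genotype, small changes of members at low FPKM were not resolved.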
